A study of Mus musculus with 375 samples.

Results

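The nuclear-encoded genes of the mitochondrial respiratory chain and ATP synthase were examined in single Lgr5+ cells of the mouse small intestine. They were taken from the expression table by symbol, as Nduf genes of the a, b, c, s and v series, Sdha to Sdhd, Uqcr genes, Cox4 to Cox8 genes and Atp5 genes, with predicted genes and pseudogenes left out. This gave 84 genes of 23420: 37 of complex I, 4 of complex II, 8 of complex III, 18 of complex IV and 17 of complex V. The rule uses symbols alone and no measured value, though it was set with earlier results of these data known.

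The cells were isolated by flow cytometry for Lgr5, a receptor that marks stem cells at the crypt base, and single-cell RNA was sequenced by Smart-seq2, which makes full-length cDNA. The mice had been fed a high-fat diet (HFD, 187 cells in sets HFD 1 and HFD 2) or a control diet (188 cells in sets control 1 and control 2). The labels give no genotype, strain, age, sex or length of feeding, and do not say whether a set is 1 mouse, a pool or a plate, so p-values measure only the spread between these sets, which may be technical. The deposited unit is TPM, transcripts per 1000000 transcripts, which is per transcript length and sums to the same total in each cell but keeps no read depth.

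The respiratory chain sits in the inner mitochondrial membrane. Complexes I and II take electrons from NADH and succinate, complex III passes them to cytochrome c, complex IV reduces oxygen, and complex V, the ATP synthase, uses the resulting proton gradient to make ATP. Stem cells at the base of small intestinal crypts are known to rely on mitochondrial respiration more than the neighbouring Paneth cells do.

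Cells with at least 2000 genes above TPM 0 were kept, which left 91 of 93 and 92 of 94 cells in the HFD sets and 93 of 94 and 91 of 94 cells in the control sets. The median number of genes per cell was 6857 and 6348.5 in the HFD sets, against 6895 and 6130 in the control sets. The stem cell label was checked on Lgr5, which averaged 136 and 133 TPM in the HFD sets and 165 and 119 TPM in the control sets. Over 6 stem markers the mean log2(TPM + 1) was 7.42 and 7.33 in HFD against 7.44 and 7.16 in control. Their summed TPM was 10195 and 12613 in HFD against 7739 and 9982 in control, without overlap. Most of that sum was Olfm4, at 9352 and 11770 TPM in HFD against 6947 and 9267 TPM in control. The epithelial marker Epcam was at 1 TPM or more in every kept cell, and the leukocyte marker Ptprc in 1 cell of HFD 2 alone. Transcripts of Rn45s, the precursor of ribosomal RNA, held 26.9% and 18.6% of all TPM in the HFD sets, against 39.1% and 24.6% in the control sets. Because TPM is a share of a fixed total, every other gene moves when Rn45s moves, so diet fold changes were also computed after Rn45s was dropped and each cell rescaled. Values per set are on the deposited total unless said otherwise.

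Most of these genes were detected in most cells. Of the 84 genes, 59 were at 1 TPM or more in at least 95% of the 367 kept cells, 15 in 50% to 95% and 10 in under 50%. A single cell held between 61 and 78 of them, with a median of 74. The highest mean levels over the 4 sets belonged to Cox4i1, the main isoform of the regulatory subunit 4 of complex IV, and to Atp5b, the catalytic beta subunit of ATP synthase, at 1909 and 1908 TPM. Atp5a1, the alpha subunit, followed at 1082 TPM, and Cox8a, a small complex IV subunit, at 1020 TPM. In all, 78 genes had a mean of at least 1 TPM and entered the tests. The 6 that did not were paralogs, several of them known from muscle, lung or testis: Ndufa4l2, Cox6a2 and Cox8c were listed at 0 in every kept cell, while Cox4i2, Cox7b2 and Cox8b were each found in 1 cell.

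**Figure D1:**
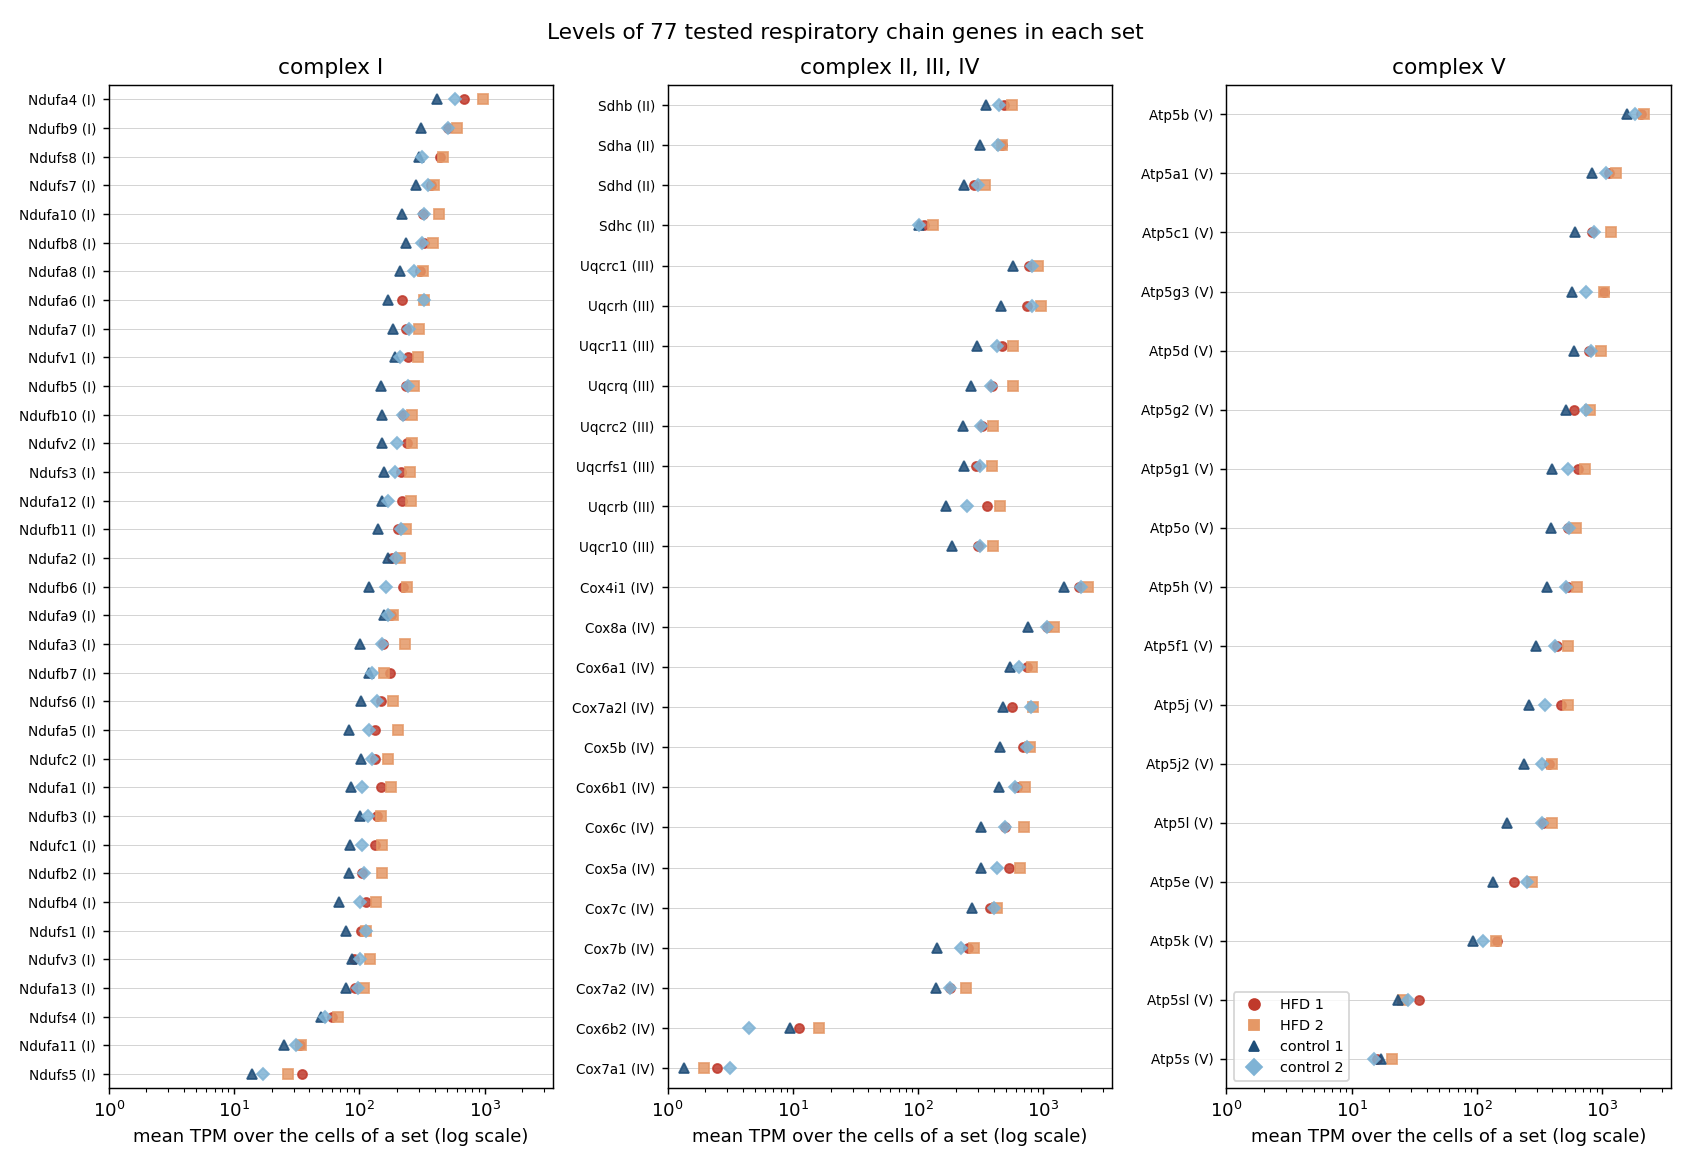
Mean TPM (log scale) of 77 of the 78 tested genes, ordered by complex and level, with 1 point for each set. Control 1 has the lowest point for most genes and HFD 2 the highest.

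Together the 84 genes made up 3.04% and 3.63% of TPM in HFD 1 and HFD 2, against 2.13% and 2.93% in control 1 and control 2. Both HFD sets lay above both control sets. The means were 3.33% ± 0.41 in HFD and 2.53% ± 0.56 in control (SD, n = 2 each), a ratio of 1.32. Without Rn45s the shares were 4.16% and 4.45% in the HFD sets and 3.49% and 3.88% in the control sets, a ratio of 1.17. The sets again did not overlap, but an exact two-sided permutation test over 4 sets cannot go below p = 0.3333, the value it gave for both totals. Single cells spread widely around these means: without Rn45s the lowest, median and highest cell held 0.355%, 4.28% and 5.54% in HFD 1, 2.70%, 4.27% and 10.5% in HFD 2, 2.24%, 3.36% and 5.28% in control 1, and 2.59%, 3.87% and 5.58% in control 2.

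By complex, the share of TPM without Rn45s was 1.08% and 1.17% in HFD against 0.899% and 0.980% in control for complex I, and 0.183% and 0.184% against 0.163% and 0.169% for complex II. For complex III it was 0.496% and 0.566% in HFD against 0.393% and 0.479% in control. Complex IV had 1.01% and 1.09% in HFD against 0.873% and 0.998% in control, and complex V had 1.39% and 1.44% against 1.16% and 1.26%. None of the 5 complexes had overlapping sets on this total (exact two-sided permutation p = 0.3333 each). On the deposited total only complex IV overlapped, with 0.740% in HFD 1 below 0.753% in control 2 (exact permutation p = 0.6667). Complexes were assigned by symbol alone. Complex IV thus includes Cox7a2l, at 559 and 824 TPM in HFD against 478 and 794 TPM in control, and leaves out Ndufa4, counted in complex I. The part of this assignment in the overlap was not tested. With 1 set left out, the difference on the deposited total kept its sign but ran from 0.132 to 0.322 percentage points for complex I, 0.0146 to 0.0426 for complex II, 0.0515 to 0.172 for complex III, 0.0623 to 0.282 for complex IV and 0.145 to 0.384 for complex V, lowest without control 1 and highest without control 2. The ratio of HFD to control was highest for complex III, at 1.22 without Rn45s and 1.37 with it, and lowest for complex II, at 1.11 and 1.25; differences between complexes were not tested.

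**Figure D2:**
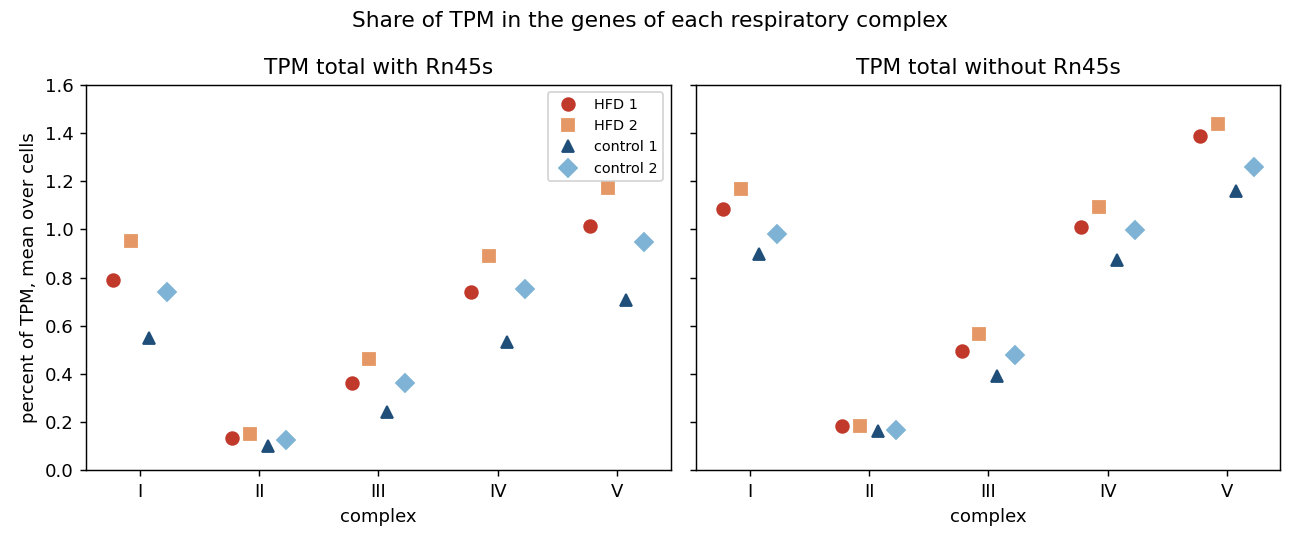
Share of TPM held by the genes of each complex, averaged over the cells of a set, with Rn45s in the total (left) and without it (right). Without Rn45s the 2 HFD points lie above the 2 control points in all 5 complexes, and control 1 is the lowest set throughout.

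Gene by gene, none of the 78 passed the test between diets. The test was limma on log2(mean TPM + 1) of the 4 sets, with Benjamini-Hochberg adjustment over all tested genes at 0.05; this log scale understates the change of low genes. On the deposited total 59 of 11667 genes passed (0.506%), of which 43 were higher in HFD (0.369%), and 0 of the 78. At an unadjusted p under 0.05 there were 15 of 78 (19.2%), all higher in HFD, where 11.1% of all genes reached it in either direction and 8.61% as higher in HFD. Without Rn45s 6 of 12124 genes passed (0.0495%), 5 of them higher in HFD (0.0412%), and 0 of the 78, and 11 of 78 (14.1%) had an unadjusted p under 0.05 against 6.47% of all genes. Leaving out control 2 brought Uqcrb past the threshold on the deposited total (log2 fold change 1.25, adjusted p = 0.0226), the 1 call among the 78 in any fit that left out a set.

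The direction was shared across the genes. On the deposited total all 78 log2 fold changes were above 0, as were 62.5% of all tested genes, and the median was 0.41 against 0.13 for all genes. Without Rn45s, 70 of 78 were above 0 against 45.2% of all genes, and the median was 0.22 against -0.05. The size of this gap rested on single sets, above all on control 1. Without control 1 the medians were 0.20 against 0.13 for all genes, and 0.16 against 0.10 without Rn45s. The gap between both medians was 0.28 over 4 sets and 0.07 without control 1, 0.16 without HFD 2, 0.40 without HFD 1 and 0.49 without control 2. Without Rn45s it was 0.27 over 4 sets and ran from 0.06 without control 1 to 0.47 without control 2. Both HFD sets exceeded both control sets for 50 of 78 genes on the deposited total (29.5% of all genes) and for 48 of 78 without Rn45s (18.0% of all genes). Ndufa2, a small complex I accessory subunit, was the 1 gene with both HFD sets below both control sets without Rn45s, at 249 and 259 TPM in HFD against 277 and 261 TPM in control. The genes of one pathway vary together from cell to cell, so these counts do not stand for 78 separate observations.

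**Figure D3:**
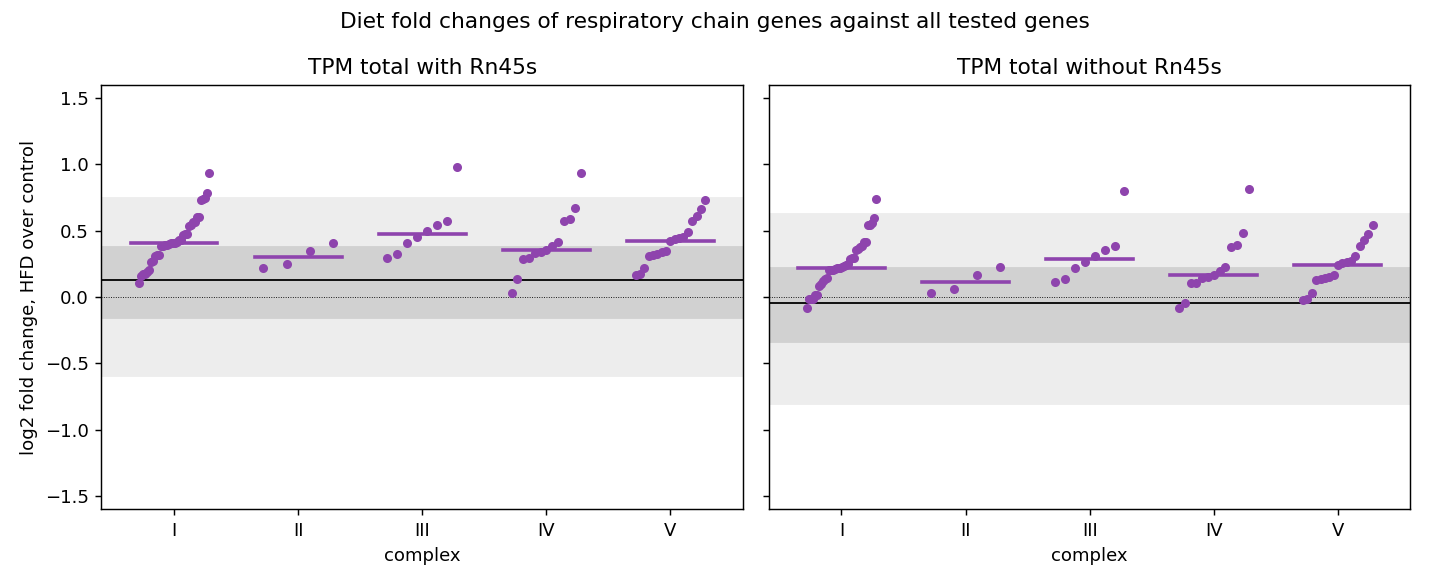
Log2 fold change, HFD over control, of each tested gene by complex (points) with the complex median (purple bar), with Rn45s in the total (left) and without it (right). Grey bands hold the middle 50% and 90% of all tested genes and the black line is their median, 0.13 and -0.05; all 5 complex medians lie above that line in both panels.

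Other measures differed between the HFD and control sets beside these genes, and apart from the values given with them their part in the result was not tested. The mean log2(TPM + 1) over 18 proliferation markers was 4.37 and 4.06 in the HFD sets against 3.55 and 3.56 in the control sets. Over 8 enterocyte markers it was 2.95 and 2.92 in HFD against 2.01 and 2.29 in control, and summed TPM of that list was 876 and 983 against 317 and 459; 1 of the 8 had a mean under 1 TPM. Cells with at least 3 of these enterocyte markers at 10 TPM or more numbered 69 of 91 and 73 of 92 in HFD against 36 of 93 and 48 of 91 in control. In the cells without them, 22 and 19 in HFD and 57 and 43 in control, the 84 genes held 3.85% and 4.53% of TPM without Rn45s in the HFD sets, against 3.40% and 3.77% in the control sets. HFD 1 lay nearer to control 2 there than in all cells, where they held 4.16% and 3.88%.

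Paneth markers differed more between sets. The summed TPM of 7 Paneth markers was 4711 and 460 in HFD against 65.2 and 32.3 in control, and cells with at least 3 of them numbered 18 and 10 against 5 and 1. In cells without Paneth markers the 84 genes held 4.25% and 4.43% in HFD against 3.50% and 3.88% in control. The 7 goblet markers summed to 626 and 538 TPM in HFD against 496 and 75.7 TPM in control. All 5 enteroendocrine and all 4 tuft markers had means under 1 TPM.

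Complex I, which oxidises NADH, had a median log2 fold change of 0.41 with Rn45s and 0.22 without it over 36 tested genes. Ndufa4 and Ndufb9 were among its highest genes. Ndufa4, named for complex I but now known as a subunit of complex IV, had 690.4 and 976 TPM in HFD against 416 and 581 TPM in control. The sets did not overlap, and its log2 fold change was 0.74 ± 0.32 (SE; adjusted p = 0.398, limma) with Rn45s and 0.54 ± 0.19 (adjusted p = 0.750) without.

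Among the core subunits of complex I, Ndufv1 and Ndufs1 had smaller fold changes than Ndufa4. Ndufv1, the NADH-binding flavoprotein, had 244 and 295 TPM in HFD against 194 and 210 TPM in control, with a log2 fold change of 0.41 ± 0.26 (adjusted p = 0.564, limma) and of 0.23 ± 0.17 without Rn45s. Ndufs1, the large iron-sulfur subunit, had 104 and 114 TPM in HFD against 78.3 and 113 TPM in control, and its log2 fold change was 0.20 ± 0.25, or 0.02 ± 0.19 without Rn45s.

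On the deposited total the smallest p-values within complex I belonged to Ndufs5, Ndufa1 and Ndufb6, all accessory subunits; without Rn45s they belonged to Ndufa1, Ndufb6 and Ndufa4. Ndufa1, which is X-linked and needed for assembly of the membrane arm, had 149 and 179 TPM in HFD against 85.6 and 104 TPM in control. Its log2 fold change was 0.78 ± 0.25 (adjusted p = 0.225, limma) and 0.60 ± 0.18 without Rn45s (adjusted p = 0.718). Ndufb6 had 225 and 241 TPM in HFD against 118 and 162 TPM in control, a log2 fold change of 0.75 ± 0.26 (adjusted p = 0.267), or 0.56 ± 0.17 without Rn45s. In both genes the HFD sets lay above the control sets on either total, without passing the test.

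Ndufs5 was held by few cells. It was at 1 TPM or more in 24.2% and 19.6% of HFD cells against 14.0% and 13.2% of control cells, and averaged 34.7 and 27.0 TPM in HFD against 14.0 and 17.1 TPM in control. A separate row of the table, BC002163, is a processed copy of it, annotated as such in GENCODE M21. That row was at 1 TPM or more in 84.6% and 79.3% of HFD cells and 72.0% and 81.3% of control cells, and averaged 113 and 122 TPM in HFD against 66.5 and 87.0 TPM in control. The aligned coding stretches of gene and copy match at 317 of 319 bases. Their first 120 bases are shown because they hold both differences, in capitals, from GENCODE transcripts on GRCm38 at chr4:123712710-123718202 (minus strand, Ndufs5) and chr16:42955631-42955949 (plus strand, BC002163):
Ndufs5: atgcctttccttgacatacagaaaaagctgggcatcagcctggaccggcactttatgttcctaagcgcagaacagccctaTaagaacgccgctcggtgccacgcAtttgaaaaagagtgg
BC002163: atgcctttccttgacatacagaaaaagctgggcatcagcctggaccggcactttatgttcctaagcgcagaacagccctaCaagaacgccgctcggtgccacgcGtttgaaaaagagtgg

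Reads that lie inside such a stretch and cover neither difference match both rows, so neither row alone is a sure measure of Ndufs5. Summed, both rows gave 147 and 149 TPM in HFD against 80.6 and 104 TPM in control, and the sum was at 1 TPM or more in 95.6% and 81.5% of HFD cells against 82.8% and 85.7% of control cells. TPM is per transcript length, so a read counts for more on a shorter transcript, and BC002163 has 319 bases in GENCODE M21. The sum is therefore not a level of Ndufs5 either. The log2 fold change was 0.94 ± 0.28 (adjusted p = 0.200, limma) for the Ndufs5 row and 0.62 ± 0.25 (adjusted p = 0.362) for the BC002163 row, and 0.74 ± 0.29 and 0.43 ± 0.18 without Rn45s. Among all 84 genes, 24 shared at least 10% of their 50-base words with another GENCODE gene. The share was 84.8% for Atp5l, 45.6% for Atp5o, 43.4% for Uqcrb and 39.7% for Ndufs3, and 21.7% for Ndufs5 itself. Values of these 24 genes are less certain for it, but the share does not give the size of the error.

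Complex II, succinate dehydrogenase, had the lowest ratio between diets. Sdha, the flavoprotein that oxidises succinate, had 465 and 467 TPM in HFD against 311 and 430.1 TPM in control, and 638 and 574 TPM against 510 and 571 TPM without Rn45s. Sdhb, the iron-sulfur subunit, had 484 and 559 TPM in HFD against 347 and 441 TPM in control, with the largest log2 fold change of the 4 (0.41 ± 0.29, adjusted p = 0.615, limma), or 0.23 ± 0.17 without Rn45s. The membrane anchors Sdhc and Sdhd had log2 fold changes of 0.25 ± 0.24 and 0.22 ± 0.27, and 0.06 ± 0.19 and 0.03 ± 0.17 without Rn45s. Sdhc turned to -0.0887 without Rn45s when control 2 was left out.

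Complex III, the cytochrome bc1 complex, held the gene with the smallest p of all 84. Uqcrb, a quinone-binding subunit encoded at chr13:66900576-66905350 (GRCm38.p6), had 357 and 446 TPM in HFD against 167 and 244 TPM in control, and 487 and 547 TPM against 274 and 322 TPM without Rn45s. HFD and control sets were well apart on both totals. The log2 fold change was 0.98 ± 0.28 (adjusted p = 0.157, limma) with Rn45s and 0.80 ± 0.18 (adjusted p = 0.457) without, so it did not pass the test in either.

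The core proteins of complex III had smaller fold changes than Uqcrb. Uqcrc1 had 766 and 912 TPM in HFD against 569 and 812 TPM in control, with HFD 1 inside the control range. Uqcrc2 had log2 fold changes of 0.40 ± 0.28 with Rn45s and 0.22 ± 0.17 without. Uqcrfs1, the Rieske iron-sulfur protein that carries electrons toward cytochrome c, had 0.32 ± 0.28 and 0.14 ± 0.18. Uqcrh, the hinge protein, had 738 and 953 TPM in HFD against 461 and 812 TPM in control, with overlapping sets.

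In complex IV, cytochrome c oxidase, the most abundant gene overlapped between diets. Cox4i1 had 1909 and 2275 TPM in HFD against 1467 and 1984 TPM in control, a log2 fold change of 0.29 ± 0.41 (adjusted p = 0.845, limma), or 0.10 ± 0.19 without Rn45s. Cox5a, which sits beside the subunit 4 protein, had 530.0 and 649.6 TPM in HFD against 317 and 427 TPM in control. Its log2 fold change was 0.67 ± 0.29 (adjusted p = 0.401) and 0.48 ± 0.17 without Rn45s (adjusted p = 0.753), with no overlap on either total. Cox7b had 249 and 280.3 TPM in HFD against 141 and 219 TPM in control (log2 fold change 0.59 ± 0.27, adjusted p = 0.430, and 0.40 ± 0.18 without Rn45s).

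The largest fold change in complex IV came from a rare isoform. Cox6b2, known mainly from testis, had 11.1 and 16.3 TPM in HFD against 9.49 and 4.48 TPM in control, and was found in 26 and 20 HFD cells against 17 and 11 control cells. Its log2 fold change was 0.93 ± 0.36 (adjusted p = 0.348, limma), and 0.81 ± 0.47 without Rn45s, where the sets overlapped at 15.1 and 20.6 TPM in HFD against 15.3 and 5.90 TPM in control. With 1 set left out it ran from 0.47 to 1.40, and from 0.19 to 1.43 without Rn45s. Cox7a1, known from heart and skeletal muscle, had 2.465 and 1.95 TPM in HFD against 1.35 and 3.15 TPM in control, in at most 7 cells of a set.

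Complex V, the ATP synthase, is made of a catalytic head, a stalk and a membrane ring. The head subunits Atp5b and Atp5a1 had 2054 and 2167 TPM and 1141 and 1277 TPM in HFD, against 1583 and 1828 TPM and 830.1 and 1078 TPM in control. Their log2 fold changes were 0.31 ± 0.41 and 0.35 ± 0.35 (limma), or 0.13 ± 0.19 and 0.17 ± 0.18 without Rn45s, and their sets did not overlap on either total. Atp5j, coupling factor 6 of the stalk, had the smallest p in complex V: 468 and 532 TPM in HFD against 259 and 348 TPM in control, a log2 fold change of 0.73 ± 0.28 (adjusted p = 0.343) and 0.55 ± 0.17 without Rn45s (adjusted p = 0.724). Atp5s and Atp5sl, which share the Atp5 name but are now called Dmac2l and Dmac2 and are not ATP synthase subunits proper, were the lowest, at 15.8 and 20.8 TPM and 34.7 and 25.8 TPM in HFD against 17.1 and 14.9 TPM and 23.3 and 28.2 TPM in control.

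Subunit c, which forms the rotating membrane ring, is encoded by Atp5g1, Atp5g2 and Atp5g3, whose mature proteins are identical and differ only in the import sequence that is cut away. A share within the family is a ratio of its own genes, not of a cell's total. Atp5g3 made up 45.4% and 40.3% of the family's TPM in HFD against 38.6% and 36.9% in control. Atp5g2 made up 26.2% and 31.3% in HFD against 34.6% and 36.8% in control, and Atp5g1 28.3% and 28.3% against 26.8% and 26.3%. The sets of either diet did not overlap for any of the 3 genes, and Atp5g2 differed by -6.91 percentage points against a pooled SD between sets of 2.79 (exact two-sided permutation p = 0.3333, the smallest possible). With 1 set left out this difference ran from -9.47 (without HFD 2) to -4.34 (without HFD 1), and the 5.13 points of Atp5g3 from 2.58 (without HFD 1) to 7.68 (without HFD 2). In TPM, Atp5g3 had 1035 and 1029 in HFD against 572 and 742 in control, while Atp5g2 overlapped at 597 and 799 in HFD against 512 and 740.5 in control. Of Atp5g2, 38.3% of 50-base words are shared with another gene, chiefly the pseudogene Gm10175.

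The other paralog families were dominated by 1 gene. Cox7a2l, now known as a factor of respiratory supercomplexes rather than a plain subunit, held 75.3% and 77.1% of Cox7a TPM in HFD against 77.5% and 81.4% in control, and Cox7a2 held 24.4% and 22.7% against 22.3% and 18.3%. The difference in Cox7a2l, -3.23 percentage points (exact permutation p = 0.3333), ran from -5.19 without control 1 to -1.27 without control 2. Cox6b2 held 1.79% and 2.26% of Cox6b TPM in HFD against 2.10% and 0.747% in control, with overlapping sets. Cox4i1, Cox6a1, Cox7b, Cox8a and Ndufa4 each held between 99.8% and 100% of their families.

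**Figure D4:**
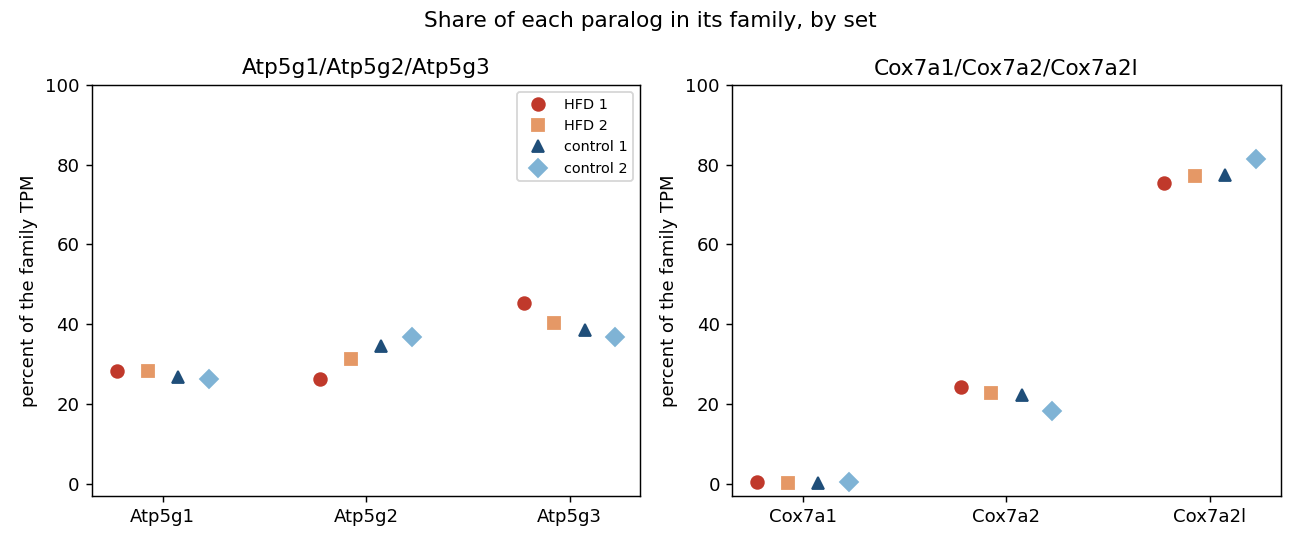
Share of each paralog in the summed TPM of its family, 1 point for each set. In the Atp5g family (left) Atp5g2 is lower and Atp5g3 higher in both HFD sets than in both control sets; in the Cox7a family (right) Cox7a2l holds over 75% in every set.

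The promoters of the Atp5g genes are shown because the shares of these paralogs differed between diets in opposite directions. They run from 250 bases before to 50 bases after a start in the RefSeq table (GRCm38.p6, all on the minus strand), at chr11:96075582-96075881 for Atp5g1, chr15:102670998-102671297 for Atp5g2 and chr2:73911277-73911576 for Atp5g3. That start is the annotated 5′ end of the gene for Atp5g2, and lies 63 bases inside the gene for Atp5g1 and 1138 bases inside it for Atp5g3, so the Atp5g3 window does not hold the sequence before its outermost start. Capitals mark matches to the NRF1 consensus on either strand; its letters are not in the Atp5g1 window:
Atp5g1: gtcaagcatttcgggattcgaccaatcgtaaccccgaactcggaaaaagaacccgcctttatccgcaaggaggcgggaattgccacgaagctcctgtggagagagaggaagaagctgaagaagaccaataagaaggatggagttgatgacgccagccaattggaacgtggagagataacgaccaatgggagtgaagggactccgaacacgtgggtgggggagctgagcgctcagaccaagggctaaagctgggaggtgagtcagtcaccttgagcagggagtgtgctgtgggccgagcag
Atp5g2: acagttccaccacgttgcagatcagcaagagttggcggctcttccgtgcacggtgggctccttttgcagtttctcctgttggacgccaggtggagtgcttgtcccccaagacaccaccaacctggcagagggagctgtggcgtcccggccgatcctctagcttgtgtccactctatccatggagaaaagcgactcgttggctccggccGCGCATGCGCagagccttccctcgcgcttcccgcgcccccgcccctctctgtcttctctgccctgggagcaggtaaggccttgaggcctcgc
Atp5g3: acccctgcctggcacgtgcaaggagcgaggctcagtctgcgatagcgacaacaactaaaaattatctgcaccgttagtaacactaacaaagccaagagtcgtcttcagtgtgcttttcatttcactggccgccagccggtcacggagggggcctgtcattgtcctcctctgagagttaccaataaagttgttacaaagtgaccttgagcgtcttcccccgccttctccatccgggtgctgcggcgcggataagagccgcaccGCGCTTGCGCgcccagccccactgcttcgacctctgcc

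NRF1, GABP of the ETS family and YY1 are transcription factors long known to bind genes of the respiratory chain. The table held 71 windows for 66 of the 84 genes, 10 of them with a start more than 100 bases inside the gene; a gene was counted if any of its windows held the motif. The NRF1 consensus, as it stands in capitals in Atp5g2 with any base allowed at its sixth place, occurred on either strand in 17 of 66 (25.8%), against 5.19% of all 27025 genes with a window. CCGGAAG (ETS) occurred in 16 (24.2%), against 9.93%, and AAGATGGC (YY1) in 9 (13.6%), against 3.19%. In all 36 genes held at least 1 of the 3, all searched on both strands and none contained in another, 6 held at least 2 and 30 held none. These are matches of letters in a window and say nothing of binding.

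The same genes were next compared between cells with more and with fewer proliferation transcripts within each set. Cells were ranked by mean log2(TPM + 1) over the 18 proliferation markers, and the highest 30, 30, 31 and 30 cells of HFD 1, HFD 2, control 1 and control 2 (high-score cells) were set against as many of the lowest (low-score cells). Because both come from 1 set, the level of that set cancels. The high-score cells also had more detected genes, with medians of 7702, 6975, 7610 and 7016 against 5994, 5427, 6234 and 5527, and the part this plays was not tested beyond the restricted comparison given below. A score has no natural gap: 5 to 9 cells of each set lay within 0.25 of either limit.

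With set as a block, 845 of 11662 genes (7.25%) passed limma's test as higher and 309 (2.65%) as lower in high-score cells, the score genes left out. Of the 78 genes, 14 rose and 1 fell: 4 of 36 in complex I, 0 of 4 in complex II, 1 of 8 in complex III and 5 of 17 in complex V rose, while in complex IV 4 of 13 rose and 1 fell. The median log2 fold change was 0.30, against 0.03 for all genes, and 70 of 78 were above 0, against 52.6% of all genes. In 36 of 78 genes (46.2%) high-score cells were higher in all 4 sets, against 17.9% of all genes. The same 15 genes were called after Rn45s was dropped.

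Cox5a averaged 602, 723, 378 and 526 TPM in the high-score cells of HFD 1, HFD 2, control 1 and control 2, against 420.5, 496, 241 and 309 TPM in the low-score cells. It rose by 0.62 ± 0.08 on the log2 scale (SE; adjusted p = 0.00106, limma). Cox5b, a zinc-binding subunit of complex IV, averaged 763, 874, 496 and 920.2 TPM in high-score cells against 519.97, 665, 362 and 524 TPM in low-score cells, a rise of 0.55 ± 0.09 (adjusted p = 0.00266). Both were higher in high-score cells of every set.

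Atp5g1 averaged 744, 743, 470.2 and 644 TPM in high-score cells against 455, 619, 298 and 411 TPM in low-score cells, a rise of 0.57 ± 0.09 (adjusted p = 0.00347, limma). Cox7a2l was the gene that fell, with 459.9, 656, 414 and 701 TPM in high-score cells against 659.9, 915, 528 and 896 TPM in low-score cells. Its log2 fold change was -0.42 ± 0.07 (adjusted p = 0.00489), and it was lower in high-score cells of all 4 sets. These 4 genes were called whichever set was left out.

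The other 11 called genes lost the call in at least 1 of those fits. Ndufs8, a core iron-sulfur subunit of complex I, averaged 499.99, 472, 362 and 406 TPM in high-score cells against 354, 403, 232 and 189.7 TPM in low-score cells (log2 fold change 0.61 ± 0.13, adjusted p = 0.0143, limma). Uqcrc1 rose by 0.31 ± 0.07 (adjusted p = 0.0177), Cox8a by 0.33 ± 0.07 (adjusted p = 0.0123) and Cox7a2 by 0.52 ± 0.11 (adjusted p = 0.0137). Ndufa3, Ndufa5, Atp5o, Atp5f1, Atp5j2 and Atp5k rose by 0.42 to 0.67, with Atp5j2 equal within HFD 2 at 395 TPM in both.

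The Ndufs5 row rose by 1.35 ± 0.28 (adjusted p = 0.0140, limma), with 51.1, 40.0, 22.6 and 22.4 TPM in high-score cells against 14.3, 8.93, 10.8 and 14.8 TPM in low-score cells. The row of its copy BC002163 had 102, 114, 72.6 and 82.4 TPM in high-score cells against 135, 122, 43.7 and 87.1 TPM in low-score cells, a log2 fold change of 0.03 ± 0.19 (adjusted p = 0.948). Summed, both rows had 153, 154, 95.2 and 105 TPM in high-score cells against 150, 131, 54.5 and 102 TPM in low-score cells, nearly equal in HFD 1 and control 2, and the sum was not tested. In low-score cells alone the log2 fold change of the Ndufs5 row for HFD over control was -0.14, against 0.94 in all kept cells; the interaction test given below did not call it.

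**Figure D5:**
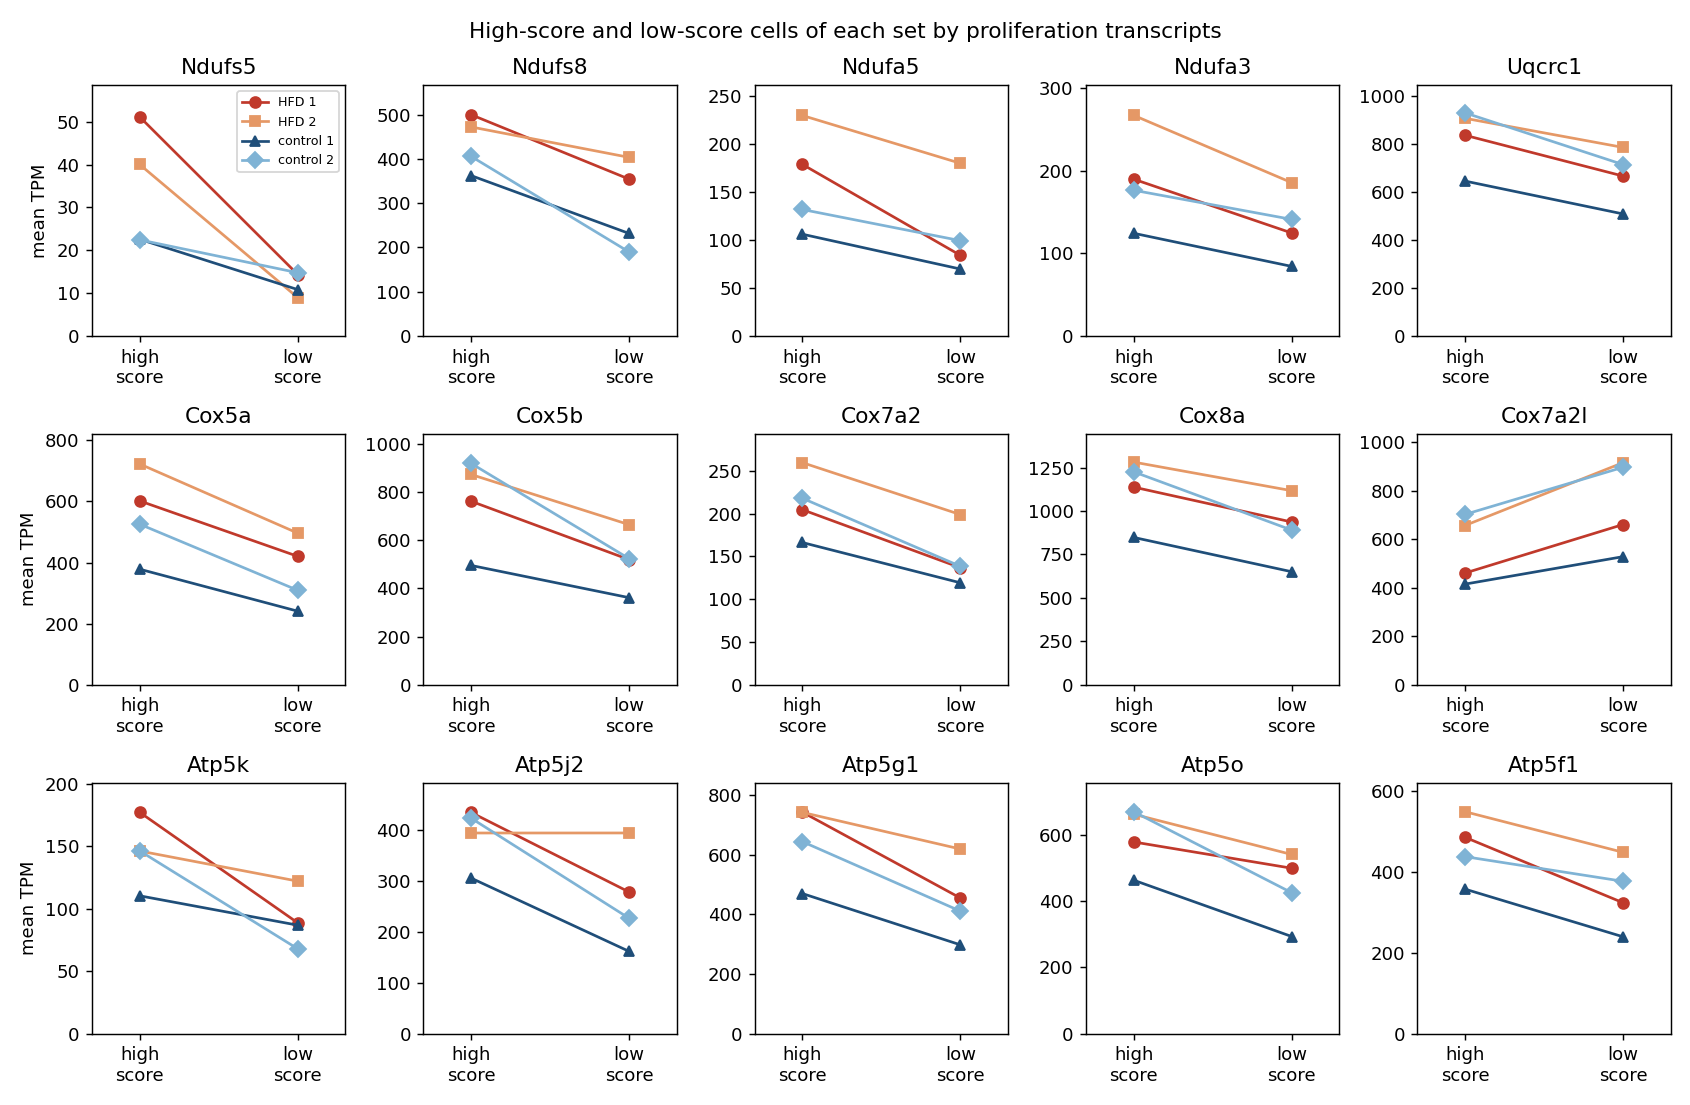
Mean TPM in high-score and low-score cells of each set for the 15 genes called between them, ordered by complex, with 1 line for each set. Of these genes, 14 slope down to the low-score cells and Cox7a2l slopes up in all 4 sets; Atp5j2 is flat in HFD 2.

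Fewer genes were called when only cells in the middle range of gene number were compared, while the median fold change of the 78 again lay above that of all genes. Among cells with a number of genes inside the interquartile range of all kept cells, limma called 293 genes and 4 of the 78. Of 11596 genes 260 were called higher (2.24%), as were all 4. High-score and low-score cells were chosen anew among these fewer cells. Whether gene number or the loss of cells lowered the count was not tested. The 4 genes were Atp5g1, Cox5b and Ndufs5, called above too, and Uqcrq, a small subunit of complex III (adjusted p = 0.0529 above). The median log2 fold change of the 78 there was 0.26, against -0.05 for all genes. There Cox5a had a log2 fold change of 0.31 (adjusted p = 0.240) and Cox7a2l of -0.32 (adjusted p = 0.193), so both kept their direction but not the call. Leaving out HFD 1, control 1 or control 2 left 5, 5 and 8 of the 78 called, against 18 without HFD 2. Of these, 4, 4, 7 and 17 were higher in high-score cells and Cox7a2l was lower each time. In the same fits 4.91%, 4.49%, 5.05% and 4.90% of all genes were called higher, with score genes included in the number tested.

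As a share of TPM without Rn45s, the 84 genes held 4.43%, 4.34%, 3.78% and 4.28% in high-score cells of HFD 1, HFD 2, control 1 and control 2, against 3.75%, 4.38%, 3.14% and 3.40% in low-score cells. HFD 2 was the set with no higher share in its high-score cells. Within the low-score cells the HFD sets held more than the control sets, and the median diet log2 fold change of the 78 genes there was 0.46 against 0.12 for all genes, or 0.30 against -0.05 without Rn45s. Low-score cells were chosen within each set, and their highest score was 3.21 and 2.97 in the HFD sets against 2.61 and 2.07 in the control sets. These cells were thus not matched in score between diets. A test of the interaction between diet and score called 0% of 11680 genes with limma (624, or 5.34%, at an unadjusted p under 0.05), and 0 of the 78 (1 at an unadjusted p under 0.05). The log2 difference between high-score and low-score cells, HFD minus control, had a median of -0.15 for the 78 and 0.02 for all genes, with or without Rn45s. At the median the 78 thus rose less in HFD than in control, and their shift as a group was not tested. The HFD sets were unlike in this. The share rose from 3.75% to 4.43% in HFD 1 and from 3.14% to 3.78% in control 1, but did not rise in HFD 2. The interaction was not fitted again with a set left out.

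Within the Cox7a and Atp5g families, 4 genes differed in share between high-score and low-score cells in the same direction in every set. Cox7a2 held 30.7%, 28.2%, 28.5% and 23.6% of the Cox7a family in high-score cells against 17.1%, 17.8%, 18.4% and 13.4% in low-score cells, a mean difference of 11.1 percentage points ± 1.64 (SD, n = 4 sets). Cox7a2l differed by -11.3 ± 1.62. In the Atp5g family, Atp5g2 held 24.1%, 29.2%, 30.8% and 32.3% in high-score cells against 32.3%, 33.6%, 39.2% and 42.7% in low-score cells, and Atp5g1 29.6%, 29.6%, 27.8% and 29.6% against 23.9%, 23.8%, 24.1% and 23.8%. For each of these 4 genes an exact two-sided permutation of signs over 4 sets gave p = 0.125, the smallest it allows.

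From cell to cell within a set, the complexes varied together to unequal degrees. Pearson's r between the summed levels of complex I and complex V, on the log2(TPM + 1) scale without Rn45s, was 0.928 in HFD 1 (91 cells), 0.728 in HFD 2 (92), 0.743 in control 1 (93) and 0.649 in control 2 (91). Between complexes II and III it was 0.794 in HFD 1, 0.218 in HFD 2, 0.263 in control 1 and 0.165 in control 2. HFD 1 holds 1 cell in which all 84 genes reached only 0.355% of TPM, where its next lowest cell had 2.52%; without that cell the values in HFD 1 were 0.75 for complexes I and V and 0.61 for complexes II and III. These are descriptions over cells that share a set and a fixed total.

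Genes that serve the chain were counted from 9 lists. None of their 109 tested genes was called between diets by limma, nor of the 110 tested without Rn45s. At an unadjusted p under 0.05 there were 15 of 109 (13.8%) with Rn45s and 11 of 110 without it, against 11.1% and 6.47% of all genes. Cycs, cytochrome c itself, had 73.7 and 101 TPM in HFD against 36.5 and 46.8 TPM in control (log2 fold change 1.05 ± 0.26, adjusted p = 0.0721, limma; 0.86 ± 0.21 without Rn45s, adjusted p = 0.529). Ndufaf2, a complex I assembly factor, had 55.1 and 65.7 TPM in HFD against 27.1 and 32.7 TPM in control (log2 fold change 0.99 ± 0.25, adjusted p = 0.0972, limma; 0.82 ± 0.22 without Rn45s, adjusted p = 0.632). Median log2 fold changes between diets without Rn45s were 0.29 for 10 other subunits and electron carriers, 0.20 for 15 complex I assembly factors, 0.25 for 15 import and cristae genes, 0.25 for 8 inner membrane carriers and channels and 0.11 for 14 citric acid cycle genes, against -0.05 for all genes. For 5 complex II and III assembly factors the median was 0.07 and for 21 complex IV and V assembly factors 0.06. For 9 genes of mitochondrial gene expression the median was -0.07, and for 13 regulators -0.10.

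Between high-score and low-score cells, 15 of the 109 list genes rose (13.8%) and 1 fell (0.917%), against 7.25% and 2.65% of all genes; single lists are too short to be read against these shares. Of the 10 other subunits and carriers 4 rose: Cyc1, the cytochrome c1 of complex III, Usmg5 of the ATP synthase, Etfa and Dhodh. Cyc1 rose by 0.58 ± 0.08 (adjusted p = 0.000857, limma). Of 15 complex I assembly factors Ndufaf2 and Foxred1 rose, and of 15 import and cristae genes Tomm40, Timm50, Hspd1 and Immt. Of 14 citric acid cycle genes Idh2, Dlst and Fh1 rose, and of 8 inner membrane carriers and channels Slc25a5 and Vdac1. Ppargc1a, a coactivator of mitochondrial genes, was the 1 of 12 tested regulators that was called, and it fell: 2.49, 5.12, 1.98 and 0.637 TPM in high-score cells against 13.1, 6.60, 7.42 and 10.2 TPM in low-score cells (log2 fold change -1.65 ± 0.43, adjusted p = 0.0389). None of 5 complex II and III assembly factors, 21 complex IV and V assembly factors or 9 genes of mitochondrial gene expression was called (0, 3 and 5 at an unadjusted p under 0.05, limma, which 24.0% of all genes reached).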

How the data were processed

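Single Lgr5+ cells of 4 sets, 2 from mice on HFD and 2 from mice on control diet, were analysed from 1 table of TPM values that the authors deposited. Per the submitters' processing notes, Bowtie2 and RSEM were used with the mouse build mm10; versions, the gene annotation and filters were not stated there, and RSEM's handling of reads that map to several genes bears on genes with near-identical copies. The depth behind a TPM value is unknown, so no counting interval is given.

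From these values, TPM was averaged over the kept cells of each set, with the set as replicate. limma 3.58.1 in R 4.3.3 was fitted with a trend (without one for the interaction) to log2(mean TPM + 1) of every gene whose mean reached 1 TPM (two-sided). Shares were compared by exact permutation over sets. The second total drops Rn45s and rescales each cell to 1000000. The limma fits were also run on simulated data with independent noise for each gene. Its outcome is not used here to read the diet test. No doublet caller was run, so doublets were not looked for.

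The genes, gene lists and comparisons were chosen with earlier results of these data known. Named with values are genes called in a fit, the highest 3, the lowest 2 tested and the 3 of smallest p in each complex, core subunits and paralog families, apart from 1 gene that is not reported here; Ndufa2, BC002163 and the shared-word genes were named after their values were seen. Alternatives covered the pseudocount, gene filters, cell filters, scaling, the replicate block and each set left out. Mitochondrially encoded genes were not analysed here. Coordinates are 1-based, and names, promoters and positions come from RefSeq (GRCm38.p6), in which all 84 symbols were matched, or GENCODE M21.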

Additional observations from a re-analysis of the deposited data

How the results depend on the processing

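The median log2 fold change of the respiratory chain genes stayed above that of all tested genes under every alternative run, for both diet totals and for the proliferation comparison, but for the diets most of the gap was lost without control 1 (0.07 of 0.28, and 0.06 of 0.27 without Rn45s). Counts of called genes moved more. Between diets on the deposited total, 59 genes were called; this became 0 with no filter on low genes, 5 in low-score cells alone, 14 with all deposited cells and 6 without Rn45s, and 81 to 148 with 1 set left out. Without Rn45s the count became 0 with no filter, 33 with logs averaged over cells, 10 in cells with at least 4000 genes, 2 in low-score cells and 6 to 34 with 1 set left out. None of the 78 was called in these, apart from Uqcrb when control 2 was left out (0 to 1 with 1 set left out).

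HFD and control sets share the numbers 1 and 2, which the labels do not explain. With the number as a replicate block, 635 genes and 21 of the 78 were called on the deposited total, and 514 genes and 8 of the 78 without Rn45s, all of these 21 and 8 higher in HFD. Deviations of same-numbered sets correlated at 0.233 and 0.198 on these totals; with 2 numbers and no stated pairing the block is not taken as the design.

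Between high-score and low-score cells, 1154 genes and 15 of the 78 were called. This became 462 and 5 with no filter, 3585 and 58 with logs averaged over cells, 293 and 4 in cells inside the interquartile range of gene number, and 649 to 751 and 5 to 18 with 1 set left out. The Cox6b2 share of its family, 0.60 percentage points higher in HFD, was 0 with medians over cells and -0.0705 to 1.28 with 1 set left out. Ndufs5 turned to -0.14 in low-score cells, and to -0.34 without Rn45s, while Sdhc without Rn45s ran between -0.0887 (without control 2) and 0.21 with 1 set left out. The causes were not tested. The smallest exact p over 4 sets is 0.3333, and TPM hides depth, so low genes cannot be weighed by their counts.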
